A study of Rattus norvegicus with 244 samples.

Results

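The potassium channel family was read here as every gene on the 3 rat arrays whose single annotated symbol begins with Kcn. This gave 63 genes, measured by 97 probe sets, of 10969 genes with a single symbol and 26202 probe sets in all. A probe set is a group of short probes for a transcript. Each gene was represented by its brightest probe set on average over all arrays: 36 genes had 1 probe set and 27 had more. Of the 63 genes, 51 were read on the array called type A, 9 on type B and 3 on type C.

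Potassium channels let potassium leave or enter the cell through a selective pore, and by doing so set the resting potential, end the action potential and time the next one. Voltage-gated pore subunits (Kcna to Kcnd, Kcnh, Kcnq) open on depolarisation. Modifier subunits (Kcnf, Kcng, Kcns, Kcnv) make no channel of their own and join Kv2 subunits, inward rectifiers (Kcnj) and tandem-pore leak channels (Kcnk) hold the resting potential, calcium- and sodium-activated channels (Kcnma, Kcnn, Kcnt) follow activity, and auxiliary subunits (Kcnab, Kcnip, Kcne, Kcnmb) change the gating or traffic of the pore subunits. In cortex these channels shape the firing of pyramidal neurons, and in brainstem some of them take part in pacing and in sensing pH.

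Total RNA from rat raphe and somatomotor cortex was read on 244 arrays of 84 samples, to follow the brain regions whose tracts descend to the cord after spinal cord trauma. The samples came from naive animals, from animals with a laminectomy only (sham), and from animals with a moderate spinal cord injury. Raphe and cortex alike had 4 samples from naive animals. Injured animals gave 24 samples per region, 4 at every time from 4 h and 24 h over 7, 14 and 28 days to 3 months, and sham animals gave 12, 2 at each of these 6 times. On type A arrays the raphe had 11 sham samples, with 1 at 3 months, and on type C it had 3 naive samples. A further 4 sham samples, at 30 min or 72 h, had no injured partner and entered no comparison. The labels leave out strain, sex, age and the level of the lesion. The tissue of the naive and sham raphe samples was named raphe magno in the labels and that of the injured ones raphe, so this difference in naming runs along the injury comparison in raphe. The labels do not say that samples of a group came from separate animals, so the p-values measure the spread between these samples, which may be technical.

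Values are the authors' scaled array signals on the scale log2(signal + 32), on which a difference of 1 is 2-fold for a bright probe set and understates the change of a dim one. A single probe set was compared only with itself across samples, never with another. Of the 63 members, 27 had a mean above the 90th percentile of the negative control probe sets in raphe, 29 in cortex, and 29 in neither, so many of the family's levels lie close to the background of these arrays. Probe sets entered a test if their signal passed the 40th percentile on 4 or more of the arrays fitted. By this filter 47 members were tested within raphe, 50 within cortex and 53 between the regions. The 10 not tested between regions were Kcna2, Kcna3, Kcnb2, Kcnj13, Kcnj2, Kcnj6, Kcnk6, Kcnn3, Kcnn4 and Kcnq1. Tests are limma's, with Benjamini-Hochberg adjustment over all probe sets of the 3 array types, and errors are standard errors (SE) of the fit. The number of arrays limits their precision.

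The regions were checked against their defining markers. The summed signal of cortical projection neuron genes (9 of 12 on the arrays) was 11.6 to 11.8 in 3 naive raphe samples and 16.1 in the naive cortex samples on the log2 scale, and that of brainstem genes was 14.3 to 14.4 against 9.89 to 10.7. Of 7 serotonin neuron genes tested, 3 were higher in naive raphe, against 6.51% of all probe sets, among them the serotonin transporter Slc6a4 by 1.13, and the other 4 did not pass. In injured animals 4 were higher (23.8% of all probe sets) and 2 lower (23.5%), the latter Maob (-0.38) and Gch1 (-0.37). On a score set to 0 at the naive cortex mean and 1 at the naive raphe mean, 5 samples stood apart or had poor signal. The sample labelled raphe sham 3 months replicate 1, read on types B and C, scored 0.0432 to 0.0897. The sample labelled cortex sham 3 months replicate 1 scored 0.619 to 0.705. The cortex sham 14 d replicate 2 and the cortex injured 7 d replicate 2 had a raised floor: the 5th percentile of their signal was 44.8 to 66.1 and 29.8 to 35.7 units, against 10.04 to 19.6 in the other cortex samples. The raphe injured 4 h replicate 1 had a ratio of 3' to 5' actin signal of 29.1 to 93.3, against 1.25 to 2.60 in the other raphe samples. Results that rest on these 5 samples are given with and without them.

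The regions were compared first in naive animals. Of the 53 members tested, 17 differed, against 13.9% of all probe sets tested. Lower in raphe were 13 members (7.44% of all probe sets were lower) and higher were 4 (6.51%). The naive raphe and cortex samples of these 17 did not overlap, except for Kcnma1. The 17 were chosen by a test on these same samples, so this adds no support. The share of all probe sets without overlap in naive animals was not counted. The median difference of the 53, raphe minus cortex, was -0.26, against -0.00 over all probe sets. All 17 passed the test with the same sign in sham and in injured animals as well, where 25 of 53 (32% of all probe sets) and 30 of 53 (47.3%) differed. In sham animals 7 were higher in raphe (15.4% of all) and 18 lower (16.6%), and in injured animals 7 were higher (23.8%) and 23 lower (23.5%). Those fits hold more samples than the naive one. A member seen in 1 region only could enter the test through that region alone: Kcnip3, Kcnj9 and Kcns1 passed the signal filter in cortex and not in raphe, Kcnj16 in raphe and not in cortex, and the other 13 passed in each. All 8 cortical projection neuron genes tested were lower in naive raphe (median -5.48), and 5 of 7 oligodendrocyte genes were higher. Their part in the channel differences was not tested, and in bulk tissue fewer cells of a type and less RNA per cell cannot be told apart.

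The ether-à-go-go group (EAG, ERG and ELK channels, Kcnh) held the members that kept the regions apart in every sample. Kcnh1, the EAG channel of forebrain neurons, read 7.80, 7.86, 8.47 and 7.75 in naive raphe and 10.31, 10.41, 10.29 and 10.25 in naive cortex. Every raphe sample lay below every cortex sample. The difference was -2.34 ± 0.22 (SE, adjusted p = 2.08e-12 by limma), and it was -2.12 ± 0.13 in sham and -2.32 ± 0.09 in injured animals. Over all samples compared, the highest raphe value of Kcnh1 was 8.47 and the lowest cortex value 8.80, so the groups did not overlap even with the samples that stood apart. Kcnh3, an ELK channel of the forebrain, read 10.57, 10.47, 10.48 and 10.33 in naive raphe and 12.19, 12.34, 12.31 and 12.30 in naive cortex. Its difference of -1.82 ± 0.17 (adjusted p = 1.93e-12) was -1.46 ± 0.10 in sham and -1.75 ± 0.07 in injured animals, again with no overlap over all samples. These 2 members compare with 0.368% of all probe sets without overlap, and both were read on type A, on which the sample labelled raphe sham 3 months replicate 1 has no array.

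Kcnh4, another ELK channel, was lower in raphe by a smaller step. It read 8.20, 7.68, 8.16 and 7.55 in naive raphe against 8.50, 8.67, 8.72 and 8.52 in naive cortex, a difference of -0.70 ± 0.21 (adjusted p = 0.0152), which was -0.32 in sham and -0.78 in injured animals. Kcnh7, an ERG channel, passed in sham (-0.46) and injured animals (-0.40) and not in naive ones (-0.27, adjusted p = 0.611). Kcnh2, the ERG channel also known from the heart, was higher in raphe by 0.25 in sham animals alone (adjusted p = 0.0395), and its values in naive and injured animals did not pass. The second Kcnh2 probe set gave another picture: it was higher in raphe by 2.32 ± 0.33 in naive (adjusted p = 2.1e-07), 1.94 ± 0.20 in sham and 1.69 ± 0.14 in injured animals. The transcripts each set reads were not examined. All 8 members of the group were tested. In naive raphe 3 were lower (7.44% of all probe sets) and none higher (6.51%), while Kcnh5, Kcnh6 and Kcnh8 passed in no treatment.

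The modifier subunits join Kv2 channels and shift their gating. In naive raphe 4 of the 6 genes were lower (7.44% of all probe sets) and none higher (6.51%). Their median difference was -1.63. In sham animals 5 of 6 were lower (16.6% of all probe sets) and 1 was higher (15.4%). The counts were the same in injured animals (23.5% and 23.8% of all). Kcns1 read 5.59, 5.64, 6.08 and 5.50 in naive raphe and 9.09, 7.95, 8.51 and 8.93 in naive cortex, with no overlap. Its naive raphe values lay under the negative control median of type A raphe arrays (6.15), so its raphe level is at background. The difference was -2.92 ± 0.30 (adjusted p = 2.72e-11), and -2.20 ± 0.18 in sham and -2.38 ± 0.12 in injured animals. Kcnv1, a silencing subunit of the cortex and hippocampus, read 6.51, 7.16, 6.29 and 5.83 against 8.66, 9.71, 9.23 and 9.45. Its groups did not overlap, with a difference of -2.81 ± 0.37 (adjusted p = 2.4e-08).

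The other modifier subunits differed by less. Kcnf1 read 6.63, 5.74, 7.95 and 7.71 in naive raphe against 8.94, 8.59, 8.82 and 8.55 in naive cortex, a difference of -1.72 ± 0.46 (adjusted p = 0.00616). Its raphe samples spread more widely than its cortex samples, and the groups did not overlap. Kcng2 read 6.29, 8.39 and 7.61 in the 3 naive raphe samples with a type C array and 8.98, 8.98, 9.35 and 8.60 in cortex, a difference of -1.55 ± 0.36 (adjusted p = 0.00117). A second probe set of Kcng2 did not follow it: its differences were -0.27 in naive, 0.26 in sham and 0.24 in injured animals, none past the test. Kcng1 passed as lower in sham (-0.67) and injured raphe (-0.33), and Kcns3 as higher by 0.40 and 0.35. Kv2 itself, the partner of these subunits, was represented by Kcnb2 alone, which was too dim to be tested.

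**Figure D1:**
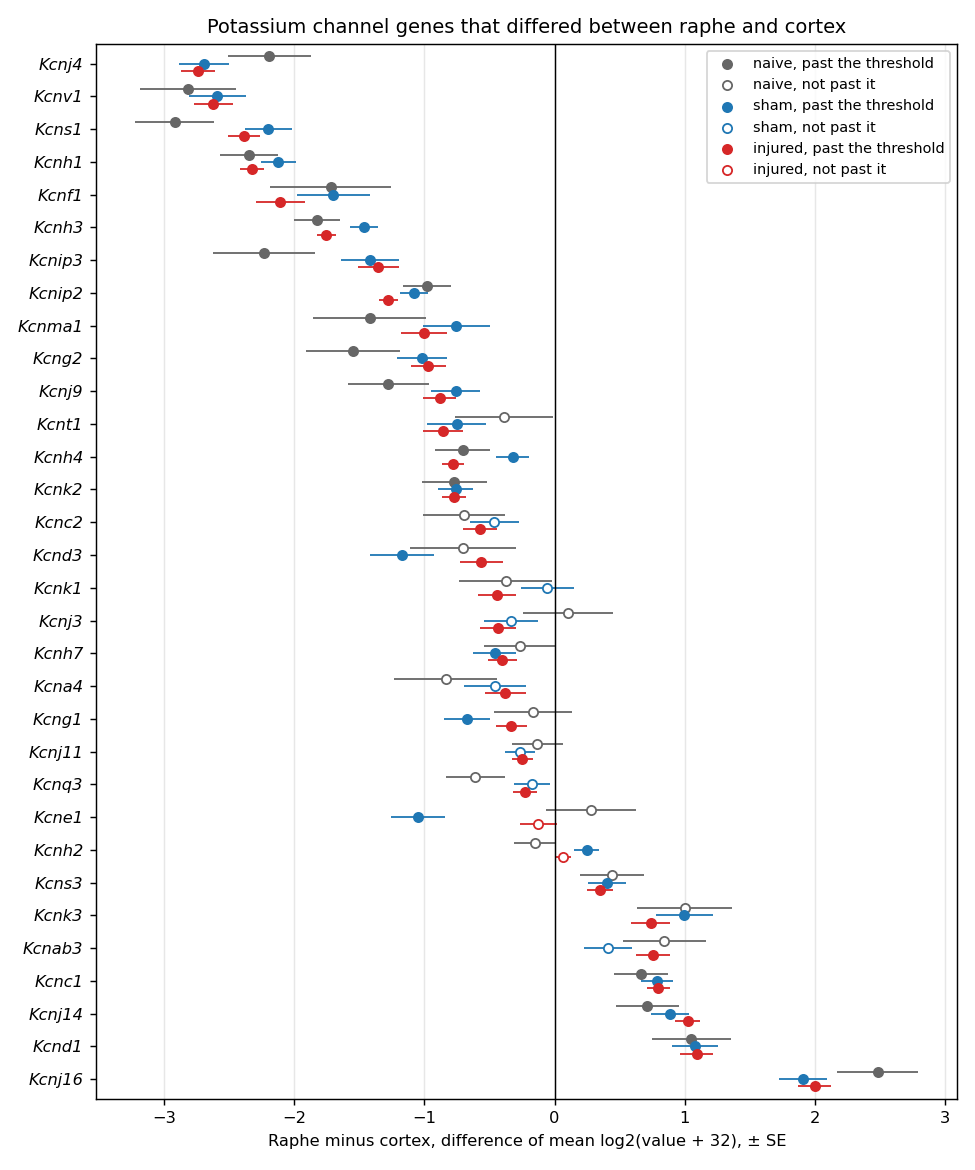
Raphe minus cortex difference (log2 of signal + 32, x axis) with its standard error for the 32 members that passed the test in at least 1 treatment, by gene (y axis); the points are naive, sham and injured animals. Kcns1, whose raphe level is at background, and Kcnv1 lie farthest to the left in naive animals (-2.92 and -2.81) and Kcnj16 farthest to the right (2.48), and for 17 genes the test passed in all 3 treatments.

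Inward rectifiers differed in both directions. Kcnj4 (Kir2.3), a strong rectifier of forebrain neurons, read 7.00, 6.48, 7.05 and 7.87 in naive raphe and 9.54, 9.20, 9.0 and 9.42 in naive cortex, with no overlap. The difference of -2.19 ± 0.32 (adjusted p = 3.66e-07) was -2.69 ± 0.19 in sham and -2.73 ± 0.13 in injured animals, and a second probe set gave -2.41, -2.98 and -3.13. Kcnj14 (Kir2.4), known from brainstem motor nuclei, went the other way: 7.84, 7.88, 8.01 and 7.91 in naive raphe against 7.17, 7.65, 7.16 and 6.80 in cortex. That difference was 0.71 ± 0.24 (adjusted p = 0.0352), and 0.89 and 1.02 in sham and injured animals. Kcnj12, another Kir2 channel, passed in no treatment, so within Kir2 1 member was lower, 1 higher and 1 did not pass.

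Kcnj16 (Kir5.1), which pairs with Kir4.1 in glia and in pH-sensitive brainstem cells, was the member highest in raphe relative to cortex. It read 8.41, 8.66, 7.87 and 8.38 in naive raphe and 5.79, 5.82, 5.94 and 5.86 in naive cortex, with no overlap. The difference was 2.48 ± 0.31 (adjusted p = 8.88e-09), and 1.91 ± 0.19 in sham and 2.00 ± 0.13 in injured animals. Its naive cortex level lay under the negative control median of type A arrays (6.24), so its cortex value is at background. Kcnj10 (Kir4.1), its usual partner, was tested and passed in no treatment.

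Of the G protein-gated rectifiers (GIRK), Kcnj9 was lower in naive raphe, at 5.74, 5.45, 5.75 and 6.07 against 7.62, 6.16, 6.31 and 8.02 in cortex. Its difference was -1.28 ± 0.31 (adjusted p = 0.00204), with raphe values near the background. Kcnj3 passed only in injured animals (-0.43), and it did so without passing the signal filter within either region. Kcnj11, the pore of the KATP channel, passed as lower in injured raphe (-0.25, adjusted p = 0.0077), and in naive animals its value was -0.13 (adjusted p = 0.752).

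**Figure D2:**
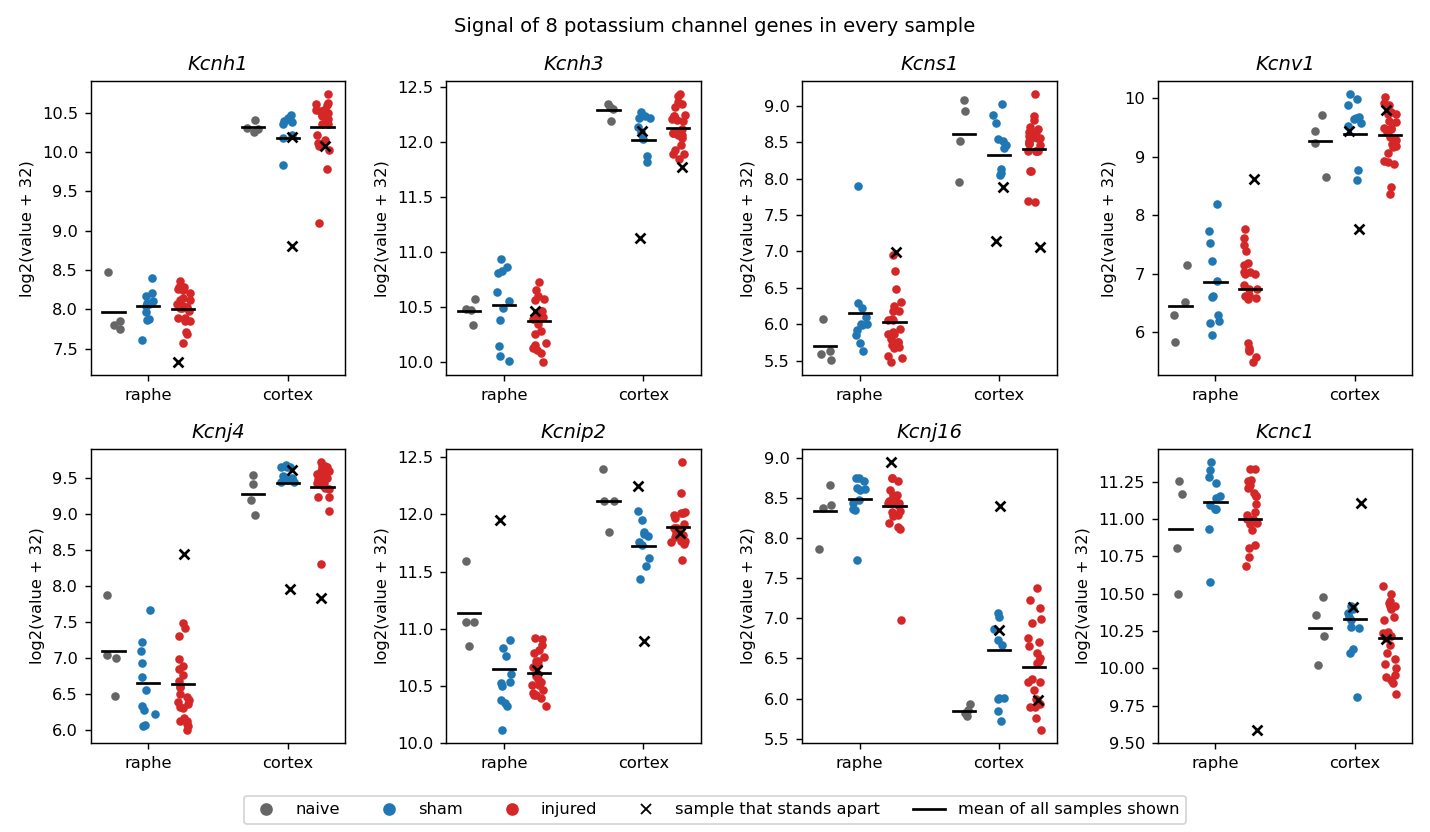
Signal (log2 of signal + 32, y axis) of 8 members in every sample of the comparisons, by region and treatment (x axis); crosses are the 5 samples that stood apart. Kcnh1 and Kcnh3 show no overlap between raphe and cortex with all samples included, and the cortex value of Kcnh1 nearest to raphe (8.80) is a cross.

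A-type current subunits also separated the regions. The KChIPs, calcium-binding partners of Kv4 channels, were represented by 3 genes, and 2 were lower in raphe in each treatment. Of all probe sets, 7.44% were lower in naive, 16.6% in sham and 23.5% in injured animals. Kcnip2 read 11.06, 11.06, 10.85 and 11.59 in naive raphe against 11.84, 12.12, 12.12 and 12.40 in cortex, a difference of -0.98 ± 0.18 (adjusted p = 5.19e-05). Kcnip3 read 6.81, 6.15, 6.25 and 6.60 against 8.86, 7.89, 8.65 and 9.34, a difference of -2.23 ± 0.39 (adjusted p = 1.42e-05), and -1.42 and -1.35 in sham and injured animals. Neither gene's naive groups overlapped, and Kcnip1 passed in no treatment.

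The Kv4 pore subunits themselves were split. Kcnd1 (Kv4.1) read 8.79, 8.94, 8.84 and 8.95 in naive raphe against 7.33, 8.10, 7.48 and 8.41 in cortex and was higher in raphe by 1.05 ± 0.30 (adjusted p = 0.0107), by 1.08 in sham and by 1.09 in injured animals. Kcnd3 (Kv4.3) was lower in sham (-1.17 ± 0.25) and injured raphe (-0.56 ± 0.17) without passing in naive animals (-0.70, adjusted p = 0.292). Its second probe set gave 0.59 in naive, -0.35 in sham and 0.31 in injured animals, none past the test, so the direction in naive and injured animals depends on the probe set. Kcnd2 (Kv4.2) passed in no treatment.

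Kcnc1 (Kv3.1), the channel of fast-spiking neurons, was the Kv3 member higher in raphe. It read 10.50, 11.17, 11.26 and 10.80 in naive raphe against 10.36, 10.21, 10.02 and 10.48 in cortex, without overlap, by 0.66 ± 0.21 (adjusted p = 0.0215). In sham and injured animals the step was 0.79 ± 0.13 and 0.80 ± 0.09. Kcnc2 (Kv3.2) passed as lower in injured raphe (-0.57 ± 0.13), with -0.70 in naive animals (adjusted p = 0.147). Other Kcnc2 probe sets gave -0.23 (adjusted p = 0.289) and -0.14 (adjusted p = 0.566) in injured animals.

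Among channels gated by activity or by lipids and pH, Kcnma1, the pore of the large-conductance calcium-activated (BK) channel, read 5.87, 6.84, 6.04 and 5.79 in naive raphe and 8.21, 7.87, 6.11 and 8.01 in cortex. Replicate 3 of naive cortex overlapped the raphe samples, and the difference of -1.42 ± 0.43 (adjusted p = 0.0163) lost the threshold in 4 of the 8 fits that left out 1 naive sample. Kcnk2 (TREK-1), a mechanosensitive leak channel, read 9.20, 9.62 and 9.64 in 3 naive raphe samples against 10.07, 10.61, 10.12 and 10.23 in cortex, a difference of -0.77 ± 0.25 (adjusted p = 0.026). Kcnk3 (TASK-1), an acid-sensitive leak channel of brainstem neurons, was higher in raphe by 1.00 ± 0.22 in sham and 0.74 ± 0.15 in injured animals. In naive animals its difference was 1.00 ± 0.37 and did not pass (adjusted p = 0.0576).

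Smaller or single-treatment differences completed the set. Kcnt1, a sodium-activated channel, was lower in sham (-0.75) and injured raphe (-0.86). By the brightest probe set, the beta subunit Kcnab3 passed in injured animals and not in the others, higher by 0.76 ± 0.13, and so did Kcnk1 (-0.44), Kcnq3 of the M-current (-0.23) and Kcna4, a Kv1 A-type channel (-0.38), all lower. Kcna4 passed the signal filter in cortex and not in raphe. Second probe sets passed in other treatments as well: Kcnab3 at 1.55 in naive (adjusted p = 0.000219) and 0.63 in sham animals (adjusted p = 0.00813), Kcnk1 at -0.57 in sham (adjusted p = 0.00103) and Kcnj11 at -0.46 in sham (adjusted p = 0.0195). Passing in injured animals and not in naive ones does not show that the regions differed more after injury; that difference was tested for injured against sham and is given with the injury results. By the brightest probe set 21 members tested passed in no treatment, among them Kcna1, Kcna5 and Kcna6 of Kv1, the beta subunits Kcnab1 and Kcnab2, and the rectifiers Kcnj1, Kcnj5, Kcnj8 and Kcnj15. Second probe sets of 3 of these genes passed in injured animals: Kcna1 at 0.63 (adjusted p = 9.35e-06), Kcnab1 at -0.75 (adjusted p = 0.00024) and Kcnab2 at -0.85 (adjusted p = 2.02e-08). That of Kcnab2 also passed in sham animals, at -0.64 (adjusted p = 0.00336).

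The direction was checked across time and probe sets. In the 13 conditions that have samples of each region (naive, 6 sham times and 6 injured times), 17 of the 63 members kept the same sign of the raphe minus cortex difference. These are not the same 17 that passed in all 3 treatments. Of the latter, Kcng2, Kcnh4, Kcnk2 and Kcnma1 were higher in raphe in 1 condition. Kcnc2, Kcnj11, Kcnk3 and Kcnt1, which did not pass in naive animals, kept their sign. The share of all probe sets that kept their sign was not counted. For Kcnh1 the difference ran from -2.74 in injured animals at 4 h to -1.39 in sham animals at 3 months, the time of the sample labelled cortex that scored toward raphe, and for Kcnj4 from -3.37 to -1.08. With the 5 samples left out, Kcnj4 and Kcnv1 joined Kcnh1 and Kcnh3 as members whose regions did not overlap, 4 in all, against 3.48% of all probe sets. The 3-month sham samples among the 5 were set apart for scoring toward the other region. Leaving them out therefore favours separation, and with all samples the share of all probe sets was 0.368%. Naive calls rose to 20 of 51 members without the 5 samples, against 20.1% of all probe sets. Of 7 other probe sets of the genes called in naive animals, 7 had the same sign and 5 passed. Besides those of Kcnh2 and Kcnab3, the second probe set of Kcnc2 passed in naive animals (-1.37, adjusted p = 0.0219) where the brighter set did not. A further probe set of Kcnc2 gave -0.06 in naive animals (adjusted p = 0.955).

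Some naive calls rested on few samples. When each of the 8 naive samples was left out in turn, Kcnj14 lost the threshold in 7 fits, Kcnc1 and Kcnma1 in 4 each, Kcnh4 and Kcnk2 in 2 each, and Kcng2, Kcnf1 and Kcnd1 in 1 each. The largest adjusted p came without raphe replicate 2 for Kcng2 (0.0863), Kcnf1 (0.0742) and Kcnk2 (0.161), without raphe replicate 3 for Kcnc1 (0.101) and without raphe replicate 4 for Kcnh4 (0.08). It came without cortex replicate 1 for Kcnd1 (0.0642) and Kcnma1 (0.082) and without cortex replicate 4 for Kcnj14 (0.149). The other 9, with Kcnh1, Kcnh3, Kcns1, Kcnv1, Kcnj4, Kcnj16, Kcnip2, Kcnip3 and Kcnj9, passed in every such fit.

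Promoter sequence is shown for Kcnh1, Kcns1, Kcnj16 and Kcnj4, the members with the smallest naive p that have an entry in the RefSeq table. It is also shown for Kcne1, the member that differed between injured and sham raphe. These are the 250 bases before the annotated start, from RefSeq on GRCr8, each 5′ to 3′ on the gene's strand. Kcnh1 lies at chr13:106252966-106253215 (plus strand), Kcns1 at chr3:173262347-173262596 (minus), Kcnj4 at chr7:112954548-112954797 (minus), Kcnj16 at chr10:96517074-96517323 (plus) and Kcne1 at chr11:45077034-45077283 (minus). Capitals mark matches on either strand to the promoter element of TBP, searched as TATAAA, to the NF-Y element, searched as CCAAT, to the Sp1 element called the GC box here, searched as GGGCGG, to the core of the cyclic AMP response element, searched as TGACGT, and to the E-box, searched as CACGTG. None of these motifs contains another.
Kcnh1: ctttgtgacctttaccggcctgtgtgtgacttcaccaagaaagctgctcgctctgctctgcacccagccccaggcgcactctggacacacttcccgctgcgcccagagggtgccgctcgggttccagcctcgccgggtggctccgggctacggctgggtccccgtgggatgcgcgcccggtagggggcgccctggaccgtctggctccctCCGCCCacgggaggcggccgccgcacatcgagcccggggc
Kcns1: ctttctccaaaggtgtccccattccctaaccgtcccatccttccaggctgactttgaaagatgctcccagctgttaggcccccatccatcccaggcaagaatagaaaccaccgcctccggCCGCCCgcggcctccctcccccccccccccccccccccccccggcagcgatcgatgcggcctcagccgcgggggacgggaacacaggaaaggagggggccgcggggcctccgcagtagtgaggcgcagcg
Kcnj4: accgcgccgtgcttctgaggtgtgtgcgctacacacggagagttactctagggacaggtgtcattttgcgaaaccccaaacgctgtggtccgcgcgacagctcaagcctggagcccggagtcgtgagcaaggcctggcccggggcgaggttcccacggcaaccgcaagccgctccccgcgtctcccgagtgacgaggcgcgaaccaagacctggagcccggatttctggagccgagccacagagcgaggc
Kcnj16: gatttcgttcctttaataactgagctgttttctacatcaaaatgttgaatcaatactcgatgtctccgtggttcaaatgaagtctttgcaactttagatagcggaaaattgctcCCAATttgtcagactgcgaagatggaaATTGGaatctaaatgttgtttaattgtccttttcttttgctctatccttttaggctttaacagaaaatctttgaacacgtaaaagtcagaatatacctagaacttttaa
Kcne1: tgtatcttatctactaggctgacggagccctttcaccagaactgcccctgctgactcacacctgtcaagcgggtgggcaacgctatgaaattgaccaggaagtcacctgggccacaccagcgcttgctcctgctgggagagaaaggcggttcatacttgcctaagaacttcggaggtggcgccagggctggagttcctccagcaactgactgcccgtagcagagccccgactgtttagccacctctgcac
The share of G and C was 71.6% in Kcnh1, 68.8% in Kcns1 and 65.6% in Kcnj4, while Kcnj16 had 33.6% and Kcne1 57.6%. Kcnh1 and Kcns1 each held 1 GC box, Kcnj16 held 2 NF-Y elements, and Kcnj4 and Kcne1 held none of the 5 motifs. RefSeq promoters were found for 45 of the 63 members, with a median of 62.8% G and C against 51.2% over all promoters of that length. A GC box was present in 51.1% of the members' promoters against 30.5% of all 33469, and a TBP element in 4.44% against 12.9%. The NF-Y element stood at 24.4% against 34%, the cyclic AMP core at 2.22% against 6.95% and the E-box at 2.22% against 5.59%. These matches describe the letters only.

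Injury was then compared with sham over the 6 times, within each region. In raphe 1 of 47 members passed, against 0.985% of all probe sets: Kcne1 (minK), the auxiliary subunit that slows Kv7.1 channels, was higher in injured than in sham animals. In cortex 0 of 50 passed by limma (0.133% of all), with a smallest adjusted p of 0.314. At an unadjusted p under 0.05 were 3 members, against 2138 of all 18733 probe sets. For the difference of the injury effect between regions 0 of 53 passed (0.0202% of all). There 5 members, and 1676 of all 19846 probe sets, had an unadjusted p under 0.05.

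Kcne1 in raphe was low in sham and higher in injured samples. The injured samples read 9.10, 7.15, 7.62 and 7.48 at 4 h, 7.32, 7.45, 6.50 and 7.24 at 24 h, and 7.33, 7.46, 7.78 and 7.89 at 7 days. They read 7.13, 7.46, 7.68 and 7.56 at 14 days, 7.18, 7.44, 7.81 and 7.19 at 28 days, and 6.30, 8.0, 7.58 and 6.42 at 3 months. The sham samples read 6.77 and 6.77, 6.54 and 6.28, 6.33 and 6.11, 7.67 and 6.35, and 6.42 and 6.44 at the first 5 times, and 6.0 at 3 months. Within its time, each of the 24 injured samples lay above the sham mean, yet the groups overlapped over all times, since 1 sham sample at 14 days reached 7.67. The injured mean was 7.42 and the sham mean 6.47, a difference of 0.95 ± 0.18 (adjusted p = 0.00948 by limma, unadjusted p = 1.27e-05). It was 0.88 without the 5 samples (adjusted p = 0.00241) and 0.84 to 1.06 in the 36 fits that left out 1 sample, with adjusted p up to 0.0232.

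The naive raphe samples did not lie with the sham samples. They read 7.69, 7.41, 7.78 and 7.27, within the range of the injured ones. Sham minus naive was -1.06 ± 0.29 (adjusted p = 0.0551, and 0.00899 without the 5 samples), with 10 of 11 sham samples below the naive mean. Injured minus naive was -0.12 (adjusted p = 0.882). The comparisons with sham share the same 11 sham samples, so they are not separate evidence. Between regions, Kcne1 passed as lower in raphe in sham animals (-1.05 ± 0.21, adjusted p = 4.52e-05), with -0.12 in injured (adjusted p = 0.505) and 0.28 in naive animals (adjusted p = 0.69).

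Other measurements stand beside this result. The labels name the injured tissue raphe and the sham tissue raphe magno, and this cannot be told apart from injury. The mean of the Kcne1 probe set lay below the 90th percentile of the negative controls (7.88 in raphe), it was not tested under a filter at the 60th percentile, and its second probe set read 5.20 to 6.93 over all samples and was too dim to be tested. The summed signal of meninges genes was 14.1 to 14.6 in naive, 13.2 to 13.9 in sham and 13.2 to 15.3 in injured raphe, and 7 of 7 had an injured minus sham value above 0 (median 0.33, against -0.00 over all probe sets), none past the test. Between regions, 4 of 7 of these genes were lower in raphe in sham animals (16.6% of all probe sets) and 1 of 7 in injured animals (23.5%). Their part in the Kcne1 result was not tested. The summed signal of choroid plexus genes overlapped across treatments, at 12.3 to 15.3 in sham and 12.5 to 16.2 in injured raphe.

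**Figure D3:**
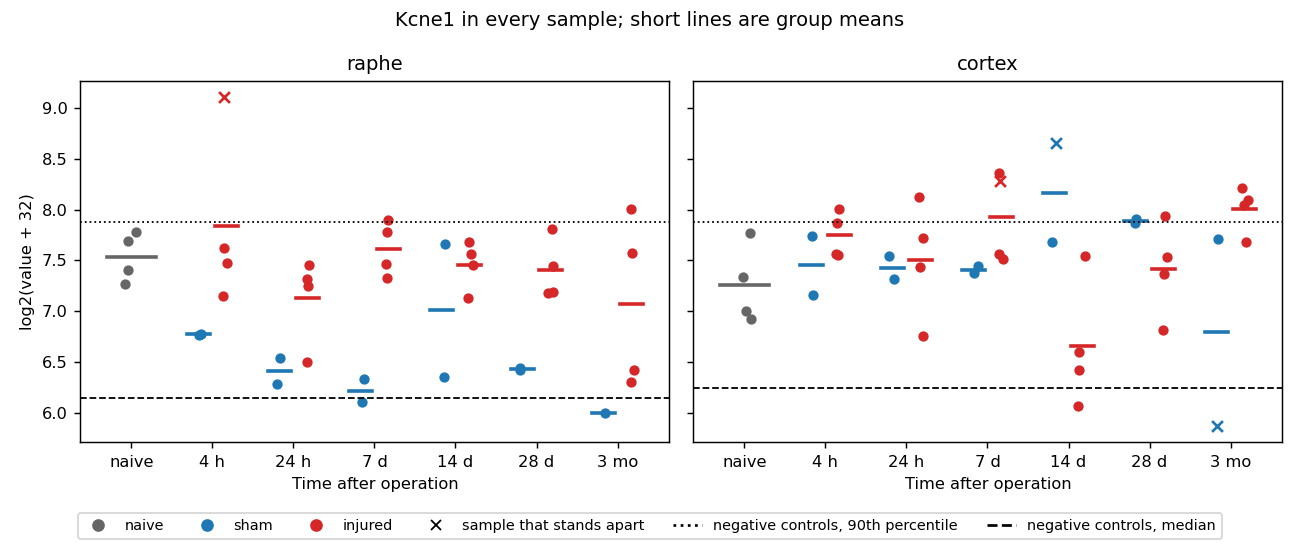
Kcne1 signal (log2 of signal + 32, y axis) in each raphe and cortex sample by time after surgery (x axis); colours are naive, sham and injured, and the lines mark the median and the 90th percentile of the negative control probe sets. In raphe the injured samples sit above the sham mean of their time at all 6 times, and most samples lie below the 90th percentile line.

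At single times no raphe member passed by limma. The shares of all probe sets that passed were 0.15% at 4 h, 0.00535% at 24 h, 0.798% at 7 days, 0.0375% at 14 days, 0% at 28 days and 0.616% at 3 months. At an unadjusted p under 0.05 were 4, 5, 6, 3, 5 and 3 of 47 members in turn. Of all 18683 probe sets, 2555, 815, 2378, 1206, 1269 and 2006 were under it. Kcne1 in raphe differed by 1.07, 0.72, 1.40, 0.45, 0.98 and 1.08 at these times in turn, the last against 1 sham sample. Without the raphe injured 4 h replicate 1 its 4 h value was 0.65, and without the 5 samples 4 members passed at 7 days (4.67% of all probe sets). These were Kcne1 (1.40, adjusted p = 0.0216), Kcnd3 (1.83, adjusted p = 0.0149), Kcnh2 (-0.56, adjusted p = 0.0431) and Kcnq3 (-0.71, adjusted p = 0.0388).

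The members next in p-value over all raphe times moved less or varied more. Kcnd3 (Kv4.3) had a lowest, median and highest value of 6.11, 6.53 and 7.48 in sham and 6.13, 7.58 and 8.43 in injured raphe, a difference of 0.77 ± 0.21 that did not pass (adjusted p = 0.0659). Without the 5 samples it was 0.83 (adjusted p = 0.0131), and its second probe set gave 0.77 ± 0.24 with all samples (adjusted p = 0.0986). Kcnh2 read 9.84, 10.28 and 10.50 in sham and 9.47, 9.88 and 10.44 in injured raphe, -0.31 ± 0.09 (adjusted p = 0.0797). The second probe set of Kcnh2 gave -0.13 ± 0.10 (adjusted p = 0.614). The sham and injured ranges overlapped for each of these genes. Kcnh4 (-0.30, adjusted p = 0.257), Kcnk5 (TASK-2; 0.49, adjusted p = 0.263) and Kcnq3 (-0.28, adjusted p = 0.3) followed. Without the 5 samples 5 of the members passed, against 4.73% of all probe sets: Kcne1, Kcnd3, Kcnh2, Kcnh4 (-0.36) and Kcnq3 (-0.34).

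In cortex the injury differences were small. Kcnma1 was highest by p-value at 0.46 (adjusted p = 0.314), with sham values of 6.20, 7.62 and 7.98 and injured values of 7.00, 7.95 and 8.53 as lowest, median and highest. Kcnt1 (0.38, adjusted p = 0.349), Kcnq3 (-0.22, adjusted p = 0.421), Kcnip2 (0.17, adjusted p = 0.443) and Kcnh4 (0.16, adjusted p = 0.507) followed. Kcne1 had a mean difference of 0.02 (adjusted p = 0.976), and the test of its injury effect between regions gave 0.93 ± 0.25 (adjusted p = 0.234).

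At single times in cortex 1 member passed, at 14 days, where 1.83% of all probe sets did. Kcne1 read 6.42, 6.07, 7.55 and 6.60 in injured and 7.68 and 8.65 in sham cortex, a difference of -1.51 ± 0.41 (adjusted p = 0.0496). Without the 5 samples, when 0.151% of all probe sets passed, it was -1.03 (adjusted p = 0.996), since the sham sample at 8.65 is 1 of the 5, and the call was lost in 4 of 6 fits that left out 1 sample. The shares of all probe sets called by limma were 0.016% at 4 h, 0.0427% at 24 h, 0.368% at 7 days, 0% at 28 days and 2.46% at 3 months, with no member among them. At an unadjusted p under 0.05 were 2, 2, 5, 0 and 15 of 50 members in turn. Of all 18733 probe sets, 1480, 1262, 1855, 595 and 3384 were under it. Kcne1 in cortex read 0.30, 0.08, 0.52, -0.47 and 1.21 at these 5 times, and the last was 0.30 without the 5 samples. Without the 5 samples Kcnj12 alone passed at 7 days (1.80, adjusted p = 0.0205, against 0.373% of all probe sets).

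**Figure D4:**
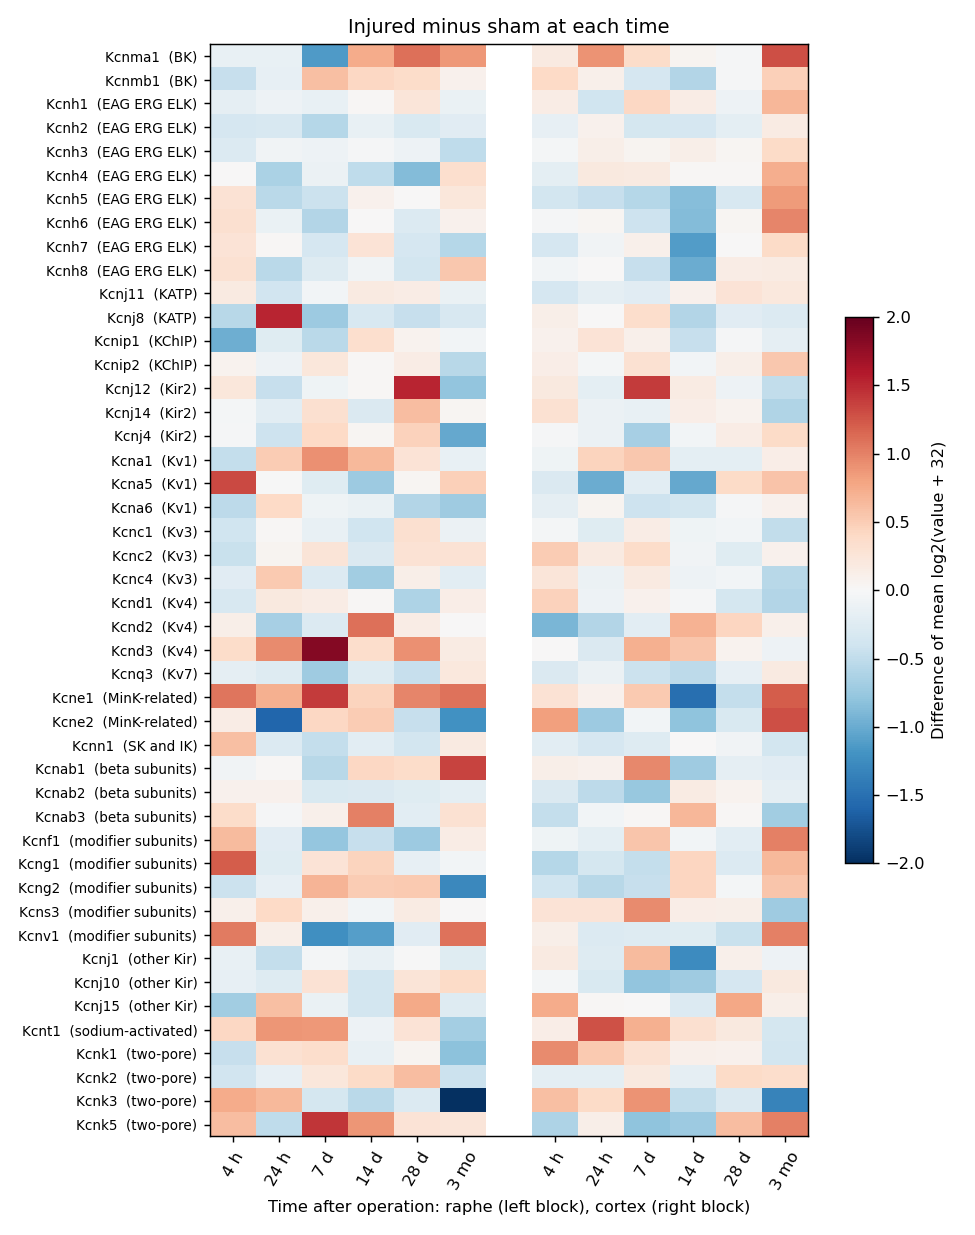
Injured minus sham difference (log2 of signal + 32, colour) of the 46 members tested within each region, at 6 times (columns), raphe on the left and cortex on the right. Of the 552 cells, 36 reach a size of 1, with 23 in raphe and 13 in cortex, and the values run from -2.01 to 1.83. At 3 months 7 cells in raphe and 7 in cortex reach it, and 1 sham sample of each region scored toward the other region there. In cortex at 14 days 4 cells reach it, where 1 sham sample had a raised floor. The lowest value is Kcnk3 in raphe at 3 months, against 1 sham sample.

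A change of the injury effect over the 6 times was passed by 0 members in raphe and 0 in cortex by limma. Of all probe sets, 0% and 0.966% passed. At an unadjusted p under 0.05 were 4 members in raphe and 8 in cortex, against 1968 of 18683 and 3329 of 18733 probe sets. In raphe the smallest adjusted p was 0.25 for Kcnd2. The smallest adjusted p in cortex was 0.0696 for Kcng2, ahead of Kcne1 at 0.0737 and Kcna4 at 0.0762. Sham against naive gave 0 of 47 members in raphe (1.35% of all) and 0 of 50 in cortex (0.491% of all) by limma. At an unadjusted p under 0.05 were 10 members in raphe and 8 in cortex, against 2737 of 18683 and 2594 of 18733 probe sets. Without the 5 samples 5 passed in raphe, against 6.13% of all probe sets: Kcne1 (-1.06), Kcnip2 (-0.61) and Kcnj11 (-0.51) lower in sham, and Kcnk1 (0.72) and Kcnq3 (0.57) higher. Injured against naive gave 0 in each region by limma, against 3.06% of all in raphe and 2% in cortex. At an unadjusted p under 0.05 were 5 and 11 members, against 3170 of 18683 and 3170 of 18733 probe sets. Without the 5 samples 5 members passed in raphe (11.3% of all) and 2 in cortex (4.12%). Kcnk1 was higher in injured than in naive animals in both, by 0.78 and 0.77. With all samples its injured minus sham value was -0.12 in raphe (adjusted p = 0.828) and 0.26 in cortex (adjusted p = 0.534), by limma.

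Genes that work with these channels were counted in the same comparisons. Of 11 tested partners whose symbols do not begin with Kcn, 3 were lower in naive raphe, against 7.44% of all probe sets: the scaffolds Dlg4 (PSD-95; -0.90, adjusted p = 0.00153) and Dlg1 (-0.61, adjusted p = 0.00475) and the paranodal protein Cntnap1 (-0.48, adjusted p = 0.0326), with a list median of -0.33. Of 12 potassium transport genes, 4 were higher, against 6.51% of all: the sodium pump subunits Atp1b2 (1.07, adjusted p = 1.74e-06) and Atp1b3 (0.56, adjusted p = 0.0407) and the cotransporters Slc12a4 (0.80, adjusted p = 0.00156) and Slc12a2 (1.34, adjusted p = 0.0126). In sham animals 5 partners and 2 transport genes were lower (16.6% of all probe sets) and 0 and 4 higher (15.4%). In injured animals 6 and 3 were lower (23.5%) and 1 and 7 higher (23.8%). The cyclic nucleotide-gated channels Cnga1, Cnga2, Cnga3, Cnga4 and Cngb1 were tested and none of the 5 passed between regions by limma in any treatment; no Hcn pacemaker gene was tested. Between injured and sham animals over the 6 times 0 genes of these lists passed in either region by limma, against 0.985% of all probe sets in raphe and 0.133% in cortex.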

How the data were processed

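Rat raphe and somatomotor cortex were profiled on 3 Affymetrix array types. The values are the authors' deposited signal intensities on a linear scale, scaled so that each array's trimmed mean (2% cut at each end) is 800 to 801, as seen in the values; array medians ran from 186 to 411. The software and summary method behind them are not given in the sources used here. Probe sets were named through the platform annotation, and a gene with several was represented by the one with the highest mean signal.

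Here log2(intensity + 32) was taken, control probe sets were left out, and a group-means model was fitted on each array type with limma 3.58.1 (R 4.3.3), within each region and over both. Injured and sham were compared as the mean over 6 times. P-values were adjusted by Benjamini-Hochberg over the 3 types together, with a threshold of 0.05. Probe sets had to exceed the 40th percentile of their array on 4 arrays or more. Negative controls are the bacterial spike-in probe sets and controls for the opposite strand.

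The members, lists and alternatives were chosen with earlier results of these data known. Named are the members past the threshold, the 5 of smallest p where fewer pass, and Kcne1 throughout. The type A arrays of injured cortex at 24 h, replicates 1 and 2, are titled 24 h but described as 4 h; titles were followed. Replicate numbers were not treated as pairs in the main fits. Same-numbered samples deviated together (correlation over 0.1) in 9 of 117 raphe-cortex pairs, 1 of 34 raphe and 4 of 36 cortex injured-sham pairs. For samples of different number this was 29 of 283, 11 of 102 and 11 of 108. Such counts cannot exclude that samples of the same number belong together. Alternatives changed the scaling between arrays, signal filter, number added, array weights, replicate block, adjustment, probe set and samples left out.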

Additional observations from a re-analysis of the deposited data

Results flagged for a closer look

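In 44 groups of member values examined, 2 had a single sample far from the rest; chance gives this in about 1 in 20 groups. Kcnma1 in naive cortex replicate 3 read 6.11, while the other 3 replicates read 7.87 to 8.21. Kcnh1 in naive raphe replicate 3 read 8.47, while the others read 7.75 to 7.86, which still left it below every naive cortex sample. Kcne1 at 14 days had an injured minus sham value of 0.45 in raphe (adjusted p = 0.995 by limma) and -1.51 in cortex, 1.96 apart, and this difference at 14 days was not tested. Each value rests on 2 sham samples. The raphe value ran from -0.21 to 1.11 when 1 sample was left out, so its sign turned, and the cortex value was -1.03 without the sham replicate 2 of poor signal.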

How the results depend on the processing

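The counts of members past the test between regions stayed within 1.5 times under every alternative run. Under all of them 9 of 17 naive, 18 of 25 sham and 23 of 30 injured calls held, as did Kcne1 in injured raphe wherever it was tested. Kcne1 in cortex at 14 days did not. For injured against sham raphe (1 call) the count was 0 with the filter at the 60th percentile and with the next probe set, and 5 with array weights and without the 5 samples. At single times, raphe (0 calls) gave 5 with weights and 4 without the 5 samples. Cortex (1 call) gave 0 with quantile normalization, with no filter and with 1 added, 2 at the 60th percentile and with the next probe set, and 3 with a larger number added than the 32 used. The change over time in cortex (0) gave 1 at the 60th percentile. Sham against naive raphe (0) gave 1 with quantile normalization, no filter or 1 added, 4 with weights and 5 without the 5 samples. With the next probe set, Kcng2 turned to 0.26 in sham and 0.24 in injured animals and Kcnd3 to 0.31 in injured animals. The cause was not tested.

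Leaving out 1 sample gave 12 to 16 naive, 22 to 26 sham and 28 to 31 injured region calls, 1 to 5 for injury in raphe, 0 in cortex and 0 for its difference between regions. It gave 0 to 5 at single raphe times, 0 to 10 at single cortex times, 0 to 1 and 0 to 6 for change over time in raphe and cortex, 0 to 1 for sham against naive raphe and 0 in cortex. The highest raphe injury counts came without the injured 4 h replicate 1, the highest cortex counts without the sham 14 d replicate 1. With the replicate number as a block the region counts were 15, 24 and 29, and it changed no other count. Dim probe sets limit the family: 29 members lay below the 90th percentile of the negative controls in both regions.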

Other observations

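The choroid plexus genes and Kcne2, a subunit known from that tissue, were high in some raphe samples. Kcne2 read 10.21 in injured 28 days replicate 2, where the summed choroid plexus signal was 16.1, 9.47 in injured 14 days replicate 1 (16.2) and 9.11 in sham 24 h replicate 1 (15.3). Kcne1 read 7.44, 7.13 and 6.54 in these samples.

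The sham samples at 30 min and 72 h kept the regional order. Kcnh1 read 8.02 in raphe at 30 min, 10.28 and 10.22 in cortex at 30 min and 10.31 in cortex at 72 h. Kcnj16 read 8.25 in raphe and 5.91, 7.03 and 5.91 in the cortex samples. Kcne1 read 7.03 in raphe, and 7.29, 6.52 and 6.90 in cortex.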
